A study of Homo sapiens with 4 samples.

Results

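The 2 control libraries of SUP-M2, of 4 libraries in the series, were described gene by gene. They were chosen by their titles: both are named for shscramble, a short hairpin RNA of scrambled sequence, and their genotype label is control. SUP-M2 is an established human line of anaplastic large cell lymphoma, grown from a mature T cell tumour in which a chromosome translocation joins NPM1 to ALK. The other 2 libraries carried short hairpin RNA against GOLM1, a Golgi membrane protein, and are not analysed here. Whether the pair came from different cultures is not in the labels, and their spread may be technical. No sample of another cell type was measured beside them, so the levels below are a description, with no test.

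Anaplastic large cell lymphoma is defined by large CD30-positive cells. In the ALK-positive form the fusion kinase is active without a ligand and drives STAT3, PI3K and MAP kinase signalling. The tumour is of T cell origin but is known for the loss of many T cell surface proteins and of the T cell receptor, while it keeps or gains cytotoxic, interleukin 17 type and activation genes. Such a line is therefore read both by the genes it expresses and by the lineage genes it lacks.

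The libraries held 31972153 and 31608073 counts over 58735 genes, of which 98.0% and 98.1% fell in protein-coding genes. Mitochondrial genes took 2.38% and 2.24% of counts, and cytosolic ribosomal protein genes 10.1% and 8.58%. Levels are given in TPM, a length-scaled share of transcripts, that is the deposited FPKM value (reads per kilobase of gene and per 1000000 reads) rescaled so that each library sums to 1000000. Values stand in the order replicate 1, replicate 2. A gene is called expressed here when it reached 1 TPM in both libraries. With no count seen, the exact 95% Poisson interval of the expected count runs from 0 to 3.69, and it covers counting error only. A floor of 3 counts was used here. For a gene of 1000 bases that floor is 0.327 and 0.347 TPM. In bulk RNA a low level from fewer cells and one from less RNA per cell cannot be told apart.

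Of 19951 protein-coding genes, 9998 (50.1%) were expressed. Among them 1538 (7.71%) were at 100 TPM or more in both libraries, 5743 (28.8%) lay between 10 and 100 TPM and 2717 (13.6%) between 1 and 10 TPM. A further 2117 genes had reads in excess of 3 counts but stayed under 1 TPM in at least 1 library, 1258 had 1 to 3 counts, and 6578 (33.0%) had 0 counts in both. Together 7836 genes (39.3%) were at 3 counts or fewer in both libraries. The shares of 50.1% expressed and 39.3% at 3 counts or fewer are the background for the list counts below. A list near these shares does not stand out from protein-coding genes at large. The median over all protein-coding genes was 1.24 TPM, and over the expressed ones 26.8 TPM. Only 5.50% of 38784 genes outside the protein-coding class were expressed.

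A count of 0 in this table does not always mean an unused gene. EEF1G, a subunit of translation elongation factor 1 that dividing cells need, had 0 counts, and 99.9% of its exonic bases also lie in exons of another gene. HERC2, GLUL, COTL1, MARCKS, GSTP1, ARHGDIB, CKAP4, INSR, DNMT3A and CD44 had 0 counts as well, and for each of these at most 6.05% of exonic bases are shared. These genes were picked after their values were seen, because many cell types use them. Among the 6578 genes with 0 counts, 666 share 50% or more of their exonic bases with another gene, against 160 of the 9998 expressed genes. Whether a 0 below reflects the cells or the assignment of reads was not tested.

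The 15 most abundant nuclear protein-coding genes outside the ribosomal proteins were led by a translation factor. EEF1A1, translation elongation factor 1 alpha, was at 11734 and 11877 TPM, and FTL, the ferritin light chain, at 10397 and 9968 TPM. The chaperones HSP90AB1 (8418 and 9013 TPM), HSPA8 (4261 and 4614 TPM) and HSP90AA1 (4254 and 4569 TPM) were among the 15. So were the actins ACTB (7605 and 7676 TPM) and ACTG1 (6202 and 6421 TPM), the glycolytic enzymes GAPDH (7302 and 7835 TPM) and ENO1 (2739 and 2835 TPM), and EEF2, TMSB4X, TMSB10, YBX1 and HMGA1. All of these are used by most dividing cells. The exception among the 15 was the cytokine IL17F, interleukin 17F, at 6831 and 6383 TPM with 66833 and 58912 counts (6607 ± 316 TPM, SD, n = 2; ENSG00000112116, chromosome 6, 52236681 to 52244537, GRCh38, minus strand). It ranked 12 of all protein-coding genes and stood at 0.936 and 0.815 times the level of GAPDH. Of the 100 highest protein-coding genes, 41 encode ribosomal proteins and 12 lie on the mitochondrial genome.

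**Figure D1:**
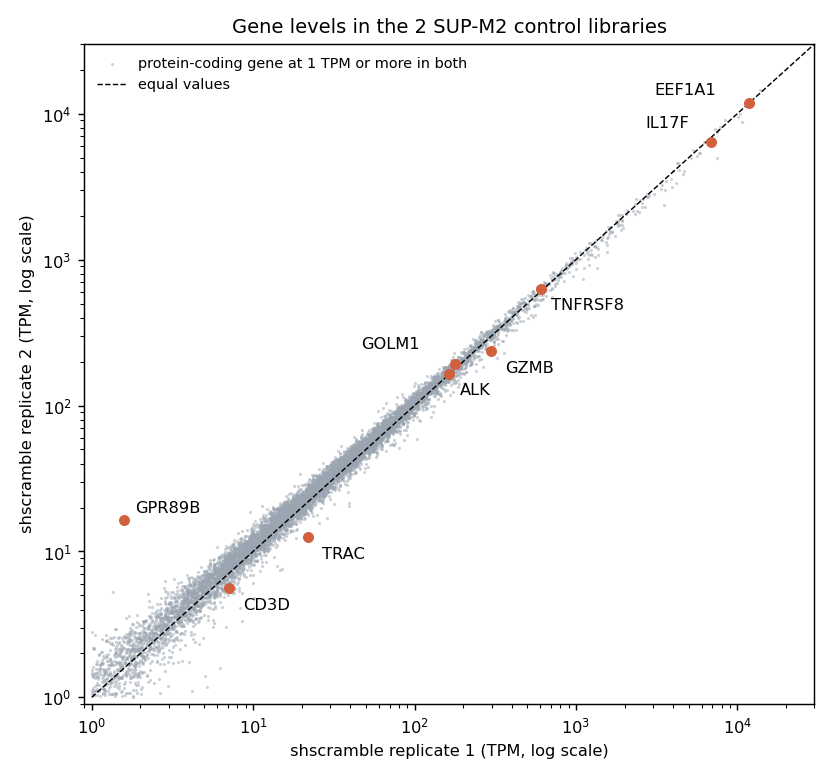
Level of each expressed protein-coding gene in replicate 1 (x axis, TPM, log scale) against replicate 2 (y axis, TPM, log scale), with 9 genes marked, of which TRAC is a receptor segment and not in the protein-coding class. Most points lie along the dashed line of equal values, IL17F sits beside EEF1A1 at the top, and GPR89B stands off the line at 1.59 and 16.4 TPM.

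All 16 genes of a list of anaplastic large cell lymphoma markers were expressed, 11 of them at 100 TPM or more, with a median of 225 TPM. The list and the others below were drawn up with earlier results of these libraries known. ALK (ENSG00000171094, chromosome 2, 29192774 to 29921566, GRCh38, minus strand), the receptor kinase whose kinase part forms the fusion, was at 164 and 165 TPM with 11094 and 10508 counts (165 ± 0.481 TPM, SD, n = 2). It ranked 890 among protein-coding genes. This value spreads all ALK reads over the whole gene length of 7362 bases, and counts per gene do not show which exons gave them, so a transcript that holds only the kinase exons would be at a higher level than printed.

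TNFRSF8 (ENSG00000120949, chromosome 1, 12063377 to 12144207, plus strand), which encodes CD30, was at 604 and 632 TPM (618 ± 19.6 TPM, SD, n = 2) and ranked 188. GOLM1 (ENSG00000135052, chromosome 9, 86026146 to 86100173, minus strand) was at 178 and 194 TPM (186 ± 11.1 TPM, SD, n = 2) and ranked 752. On the TPM scale CD30 was the most abundant of these 3 genes in both libraries. For ALK this order rests on the whole gene length. As counts scaled to the library total, with no length (CPM), the means were 647 for TNFRSF8, 340 for ALK and 220 for GOLM1. CD30 stayed highest there, but ALK then stood above GOLM1. The rank of a transcript that holds only the kinase exons of ALK was not tested.

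The rest of the marker list, given in full, ran from TMOD1, an actin-capping protein, at 4.21 and 5.43 TPM to LGALS1, galectin 1, at 1314 and 1221 TPM. JUNB, the AP-1 factor known to bind the CD30 promoter, was at 1028 and 1003 TPM. FSCN1, the actin-bundling protein fascin, was at 770 and 790 TPM. IRF4, a transcription factor of activated lymphocytes, was at 686 and 788 TPM. IL2RA, the CD25 chain of the interleukin 2 receptor, was at 427 and 455 TPM, and SERPINA1, alpha-1 antitrypsin, at 416 and 436 TPM. Beneath these lay BATF3 (275 and 253 TPM), CEBPB (147 and 133 TPM), CD274, which encodes the checkpoint ligand PD-L1 (93.8 and 107 TPM), CLU (65.4 and 66.1 TPM), MUC1 (29.2 and 33.9 TPM) and PRDM1 (17.3 and 18.8 TPM). Since the list was drawn up with values from these libraries known, its count is no independent check of the label.

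**Figure D2:**
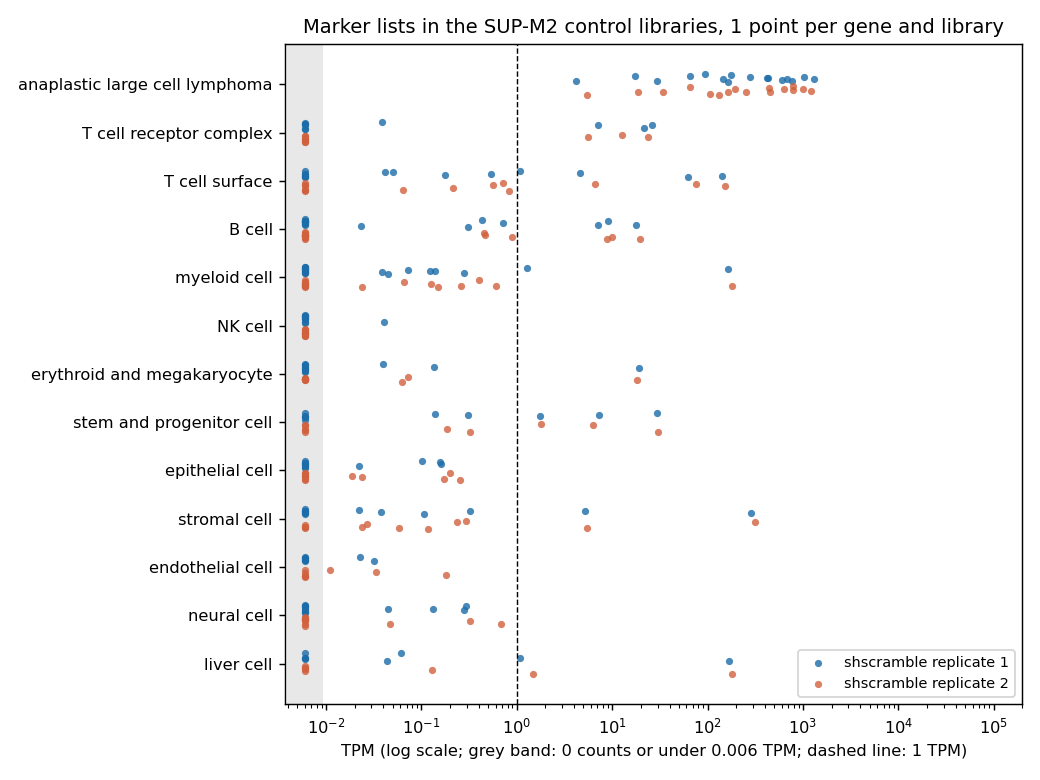
Level of every marker gene in each library (x axis, TPM, log scale) for 13 marker lists (rows), with replicate 1 above replicate 2 in each row. The anaplastic large cell lymphoma row lies wholly to the right of 1 TPM, while the NK cell, epithelial, endothelial and neural rows hold no point to the right of that line.

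The genes that form or serve the ALK fusion were abundant. NPM1, nucleophosmin, the usual fusion partner, was at 2736 and 2705 TPM, which is 16.6 and 16.4 times the level of ALK. This ratio rests on the whole gene length of ALK. Counts per gene do not separate reads of the fusion from those of NPM1 itself, so the level of NPM1 against the fusion transcript was not tested. All 7 partner genes on the list were at 100 TPM or more, down to TFG at 104 and 112 TPM. The 4 ligand genes were low. ALKAL1 and PTN had 0 counts, ALKAL2 had 11 and 2 counts, and MDK had 13 and 2 counts.

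Of 29 adaptors and kinases downstream of ALK, 25 (86.2%) were expressed. The highest were GRB2, an adaptor that links receptors to RAS, at 219 and 227 TPM, the phosphatase PTPN11 at 137 and 147 TPM, NRAS at 125 and 135 TPM and MAP2K2 at 116 and 113 TPM. AKT1 was at 86.4 and 94.1 TPM. PIK3CD, SRC and FYN were not expressed, with at most 9 counts in either library. LYN, of the same kinase family as SRC and FYN, was at 46.9 and 48.3 TPM. These 3 and LYN were named after their values were seen.

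JAK and STAT genes were expressed in 10 of 11 cases. STAT3, the factor most tied to the ALK fusion, was at 108 and 122 TPM. JAK1 was at 127 and 158 TPM and JAK3 at 93.3 and 104 TPM. The 2 STAT5 genes differed: STAT5B was at 39.6 and 44.5 TPM, while STAT5A had 0 and 3 counts. All 16 genes of a list of STAT3 targets and JAK-STAT inhibitors were expressed, with a median of 71.6 TPM. Its highest members were MCL1 (482 and 542 TPM), the feedback inhibitor SOCS3 (454 and 473 TPM), the kinase PIM3 (231 and 226 TPM), BCL3 (183 and 184 TPM), SOCS1 (170 and 179 TPM) and the phosphatase PTPN1 (119 and 134 TPM).

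Against this, the T cell receptor complex was largely missing. The receptor is a pair of variable chains carried to the surface by the CD3 and CD247 chains, and all parts are needed for surface display. Of 10 genes, 3 (30.0%) were expressed and 7 were at 3 counts or fewer. CD247, the zeta chain, was at 25.9 and 23.6 TPM. TRAC, the alpha constant region, was at 21.8 and 12.6 TPM with 195 and 106 counts. CD3D, the delta chain, was at 7.04 and 5.60 TPM. CD3E had 1 and 0 counts, and CD3G, TRBC1, TRBC2, TRDC, TRGC1 and TRGC2 had 0 counts in both libraries. TRBC1 and TRBC2 are near-identical copies, so reads that match both can be lost in counting.

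Among 106 variable segments of T cell receptor genes, 4 reached 1 TPM in both libraries and 97 were at 3 counts or fewer. TRAV14DV4 had 25 and 41 counts, TRBV9 had 24 and 30, TRAV8-4 had 36 and 20, and TRBV7-1 had 8 and 6. Of the 144 immunoglobulin variable segments 4 reached 1 TPM, led by IGLV5-52 with 66 and 85 counts and IGHV4-34 with 73 and 70 counts, while all 14 immunoglobulin constant segments were at 3 counts or fewer. These segments were named after their values were seen, and related segments share sequence, so the segment a read came from is uncertain.

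T cell surface genes split in the same way. CD4, the co-receptor of helper T cells, was at 141 and 151 TPM, PTPRC, the CD45 phosphatase, at 62.5 and 75.6 TPM, and CD2 at 4.61 and 6.54 TPM. These were the 3 expressed genes of 14. CD5, CD8A, CD6 and CD52 had 0 counts, and CD8B, ICOS and CD40LG had 3 counts or fewer. CD7 lay at the threshold, at 1.08 and 0.719 TPM, and CD28 was under it, at 0.536 and 0.568 TPM; both were named after their values were seen.

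Proximal receptor signalling, the chain from the receptor to calcium and NF-kB, had 7 of 23 genes expressed (30.4%). The exchange factor VAV1 was at 34.5 and 35.7 TPM, the adaptor LAT2 at 32.9 and 31.0 TPM, THEMIS at 28.9 and 30.3 TPM, the kinase PRKCQ at 22.6 and 22.9 TPM and BCL10 at 17.3 and 19.6 TPM. The kinase LCK, which phosphorylates the receptor chains, had 0 and 3 counts, and SYK, GRAP2, GRAP, NFATC1 and NFATC2 had 0 counts. ZAP70 had 0 and 5 counts and LAT had 1 and 4 counts, both named after their values were seen.

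Transcription factors of the T lineage were mostly present, with 21 of 28 (75.0%) expressed. BATF, the partner of IRF4 and JUNB on DNA, was at 293 TPM in both libraries. TCF3 was at 120 and 124 TPM. MYB was at 90.9 and 102 TPM, the bHLH inhibitor ID2 at 94.1 and 89.9 TPM and IKZF1 at 58.8 and 74.5 TPM. TCF7, a factor of naive T cells, TBX21, the factor of type 1 helper cells, and TOX2 had 0 counts. GATA3, the factor of type 2 helper cells, was at 20.1 and 23.1 TPM and EOMES at 21.2 and 26.3 TPM, while FOXP3, the factor of regulatory T cells, had 5 and 3 counts. GATA3, EOMES and FOXP3 were named after their values were seen.

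In the AP-1, BATF and IRF list 16 of 19 genes (84.2%) were expressed. JUNB, IRF4, BATF and BATF3 headed it, followed by JUND (99.3 and 97.6 TPM) and IRF5 (77.5 and 80.4 TPM). IRF4 was 8.85 and 9.80 times as abundant as IRF5. IRF8, a factor of B and myeloid cells, had 0 counts. Over all 1548 transcription factor genes marked in the deposited table, 772 (49.9%) were expressed, close to the 50.1% of all protein-coding genes, but families differed. MYB-type factors were expressed in 20 of 22 cases, bZIP factors in 36 of 48, ETS factors in 16 of 29, bHLH factors in 36 of 101 and homeobox factors in 50 of 191. YBX1, HMGA1, JUNB, MYBL2 (765 and 780 TPM), CNBP (756 and 775 TPM) and IRF4 were the 6 most abundant factors of all.

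Homeobox genes are known for giving position along the body axis, and blood progenitors use the HOXA cluster. In the HOXA cluster 8 of 11 genes were expressed, led by HOXA9 at 29.6 and 30.6 TPM, HOXA5 at 11.1 and 16.8 TPM and HOXA10 at 11.4 and 13.4 TPM. In HOXB 3 of 10 were expressed, with HOXB4 at 12.5 and 14.9 TPM. In HOXC 5 of 9 were expressed, and HOXC10, at 50.1 and 50.7 TPM, was the most abundant HOX gene of all. In HOXD only HOXD8 was expressed of 9 genes, at 6.55 and 8.62 TPM. Outside the clusters, GSC, a homeobox gene of the early embryo, was at 93.4 and 94.9 TPM, and PRRX2 at 51.1 and 52.3 TPM. Apart from HOXA9 these genes were chosen after their values were seen. Some HOX genes overlap the exons of other genes, HOXA9 and HOXA10 for 27.0% and 26.3% of their bases. The largest shares among the expressed HOXA genes were 62.5% for HOXA7, 40.1% for HOXA6 and 31.1% for HOXA11, so their levels are uncertain.

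**Figure D3:**
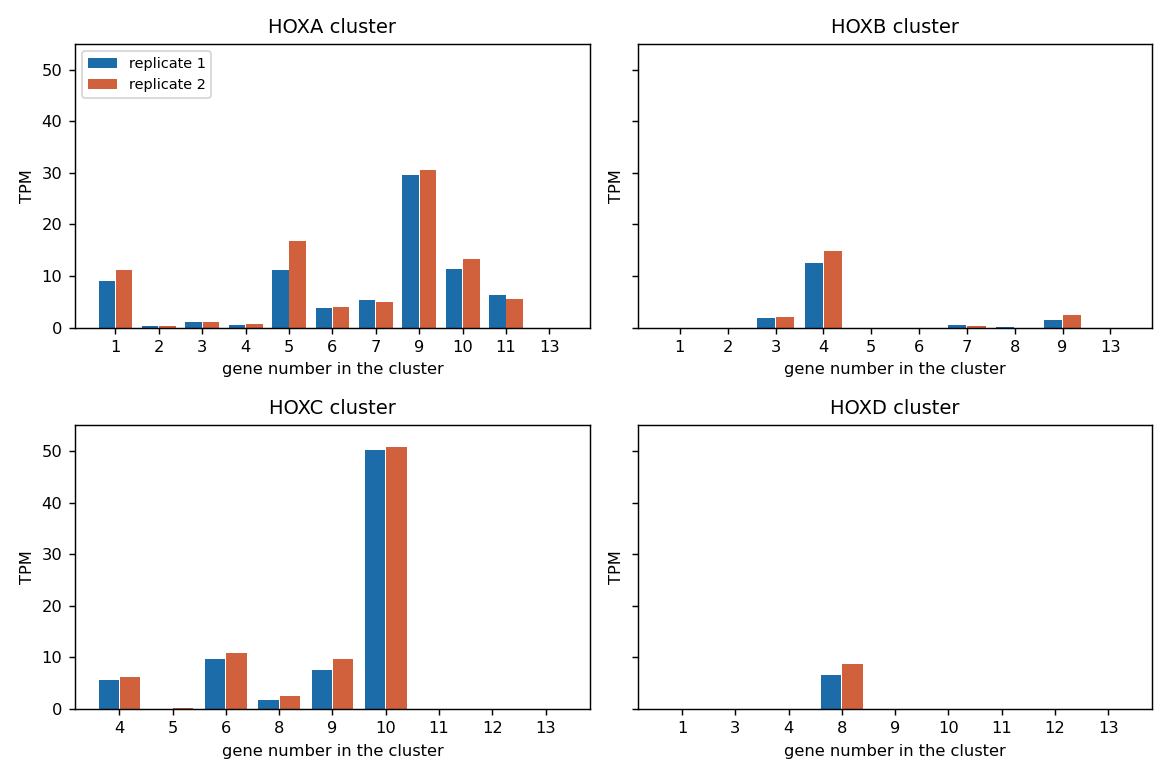
Level of each gene of the 4 HOX clusters (x axis, gene number; y axis, TPM from 0) in replicate 1 and replicate 2. HOXC10 at 50.1 and 50.7 TPM and HOXA9 at 29.6 and 30.6 TPM are the tallest pairs, and HOXD8 is the only visible pair in its cluster.

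Markers of other lineages were at or near 0 with a few abundant exceptions. None of 11 NK cell genes was expressed, 10 had 0 counts and KLRC1 had 1 and 0 counts. For KLRK1, 62.7% of exonic bases lie in exons of another gene, so its 0 is uncertain. None of 12 epithelial, 8 endothelial or 12 neural markers was expressed; their summed levels were at most 0.668, 0.226 and 1.05 TPM in either library. EPCAM, KRT5, KRT7 and KRT14 had 0 counts, as did the endothelial genes PECAM1, CDH5, KDR and EMCN and the neural genes TH, DBH and SOX10.

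Of 18 B cell markers 3 (16.7%) were expressed and 12 were at 3 counts or fewer. EBF1, a factor that sets up the B lineage, was at 17.6 and 19.6 TPM, the SRC-family kinase BLK at 8.98 and 9.997 TPM and the adaptor BANK1 at 7.12 and 8.94 TPM. PAX5, the factor that fixes B cell identity, had 2 and 0 counts, and MS4A1, CD79B, CD22 and VPREB1 had 0. Among 19 myeloid markers only CSF1R, the receptor for colony-stimulating factor 1, was expressed, at 162 and 180 TPM with 7656 and 8041 counts. SPI1, the factor that drives CSF1R in macrophages, had 0 counts, as did CEBPA, CSF3R, CSF2RA and ELANE. CEBPE had 2 counts in each library. CD14, a co-receptor of monocytes, lay at the threshold, at 1.27 and 0.613 TPM, so that 2 myeloid genes passed in replicate 1 alone.

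EPOR, the erythropoietin receptor, was at 19.2 and 18.4 TPM and was the only expressed gene of 12 erythroid and megakaryocyte markers, while HBB, HBA1, HBG1, KLF1 and GATA1 had 3 counts or fewer. HBA1 and HBG1 each have a near-identical copy. Of 10 stem and progenitor markers HOXA9, GATA2 (7.36 and 6.27 TPM) and MEIS1 (1.76 and 1.78 TPM) were expressed, and CD34, KIT, FLT3, TAL1 and LMO2 had 0 counts. VIM, vimentin, which lymphocytes also express, was at 288 and 318 TPM and ACTA2, smooth muscle actin, at 5.17 and 5.40 TPM; the collagen COL1A2 and the matrix proteins DCN and LUM had 0 counts.

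ALB, which encodes serum albumin of the liver, was at 167 and 181 TPM with 5180 and 5297 counts, the most abundant gene of the 8 liver markers. FGB was at 1.09 and 1.49 TPM. APOA1, APOB, TTR and HNF4A had 0 counts, and SERPINC1 had 1 and 2 counts. Albumin was 154 and 121 times as abundant as FGB, and these were the 2 expressed genes of the 8.

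Families of genes with narrow tissue use were close to silent. Of 381 olfactory receptors 1 was expressed, and 378 were at 3 counts or fewer. Keratins were expressed in 1 of 55 cases (KRT10 at 21.2 and 18.3 TPM), keratin-associated proteins in 1 of 94 (KRTAP5-9 at 15.8 and 14.96 TPM), beta defensins in 1 of 39, bitter taste receptors in 0 of 24, protocadherins in 3 of 66 (PCDH18 at 34.2 and 41.0 TPM) and cytochrome P450 enzymes in 5 of 55. CYP1B1, a P450 enzyme induced through the aryl hydrocarbon receptor, reached 306 and 354 TPM. Collagens were expressed in 8 of 44 cases, led by COL5A1 at 42.9 and 49.1 TPM. Housekeeping families stood at the other end: mitochondrial ribosomal proteins in 77 of 78 cases, complex I subunits in 46 of 48, proteasome subunits in 37 of 39 and the replicative MCM helicase in 6 of 6, with MCM3 at 404 and 439 TPM. These families were grouped by symbol after values had been seen.

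Few receptor tyrosine kinases were present beside ALK. Of 58 genes 11 (19%) were expressed and 31 (53.4%) were at 3 counts or fewer. Over all protein-coding genes these shares were 50.1% and 39.3%. CSF1R and ALK were the only pair at 100 TPM or more. ROR2, a receptor for WNT5A, was at 45.4 and 55.3 TPM and MET, the hepatocyte growth factor receptor, at 27.51 and 34.3 TPM. LMTK2 (16.2 and 19.7 TPM) and RYK (14.8 and 16.6 TPM) came next. ALK was 3.62 and 2.99 times as abundant as ROR2. LTK, the closest relative of ALK, had 0 counts, as did AXL, KIT, FLT3, EGFR and EPHA2. IGF1R was at 7.47 and 10.5 TPM while INSR had 0 counts; INSR is among the widely used genes at 0 listed above, and IGF1R was named after its values were seen.

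Cytokine expression was narrow and dominated by IL17F. Of 31 cytokines 9 (29%) were expressed and 18 were at 3 counts or fewer. IL17F was 25.4 and 24.3 times as abundant as TGFB1 (269 and 262 TPM) and 37.5 and 33.6 times as abundant as IL26 (182 and 190 TPM), another cytokine of interleukin 17 producing cells. IL10, an inhibitory cytokine that STAT3 signalling is known to induce, was at 183 and 187 TPM. IL32 was at 39.6 and 40.5 TPM and TNFSF10, the death ligand TRAIL, at 28.8 and 30.9 TPM. IL2, IL3, IL4, IL5 and IL9 had 0 counts and IL6 had 1 count in each library. IL17A, the paralog of IL17F on the same chromosome 46043 bases away, had 0 counts, and IL22 had 1 and 2; these 2 were named after their values were seen.

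Receptors for cytokines were broader, with 23 of 34 (67.6%) expressed. Beside IL2RA, IL1R2, the decoy receptor for interleukin 1, was at 369 and 341 TPM, IL6R at 225 and 240 TPM, IL2RB at 220 and 240 TPM, IFNGR1 at 136 and 140 TPM and IL4R at 82.2 and 87.0 TPM. The interleukin 23 receptor IL23R, which acts upstream of STAT3 in interleukin 17 producing cells, was at 37.9 and 46.9 TPM and was named after its values were seen. IL7R, IL9R, IL10RA, IL3RA and CSF2RB had 0 counts. IL2RG, the common gamma chain shared by several of these receptors, also had 0 counts, and 50.8% of its exonic bases lie in exons of another gene, so its 0 is uncertain.

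**Figure D4:**
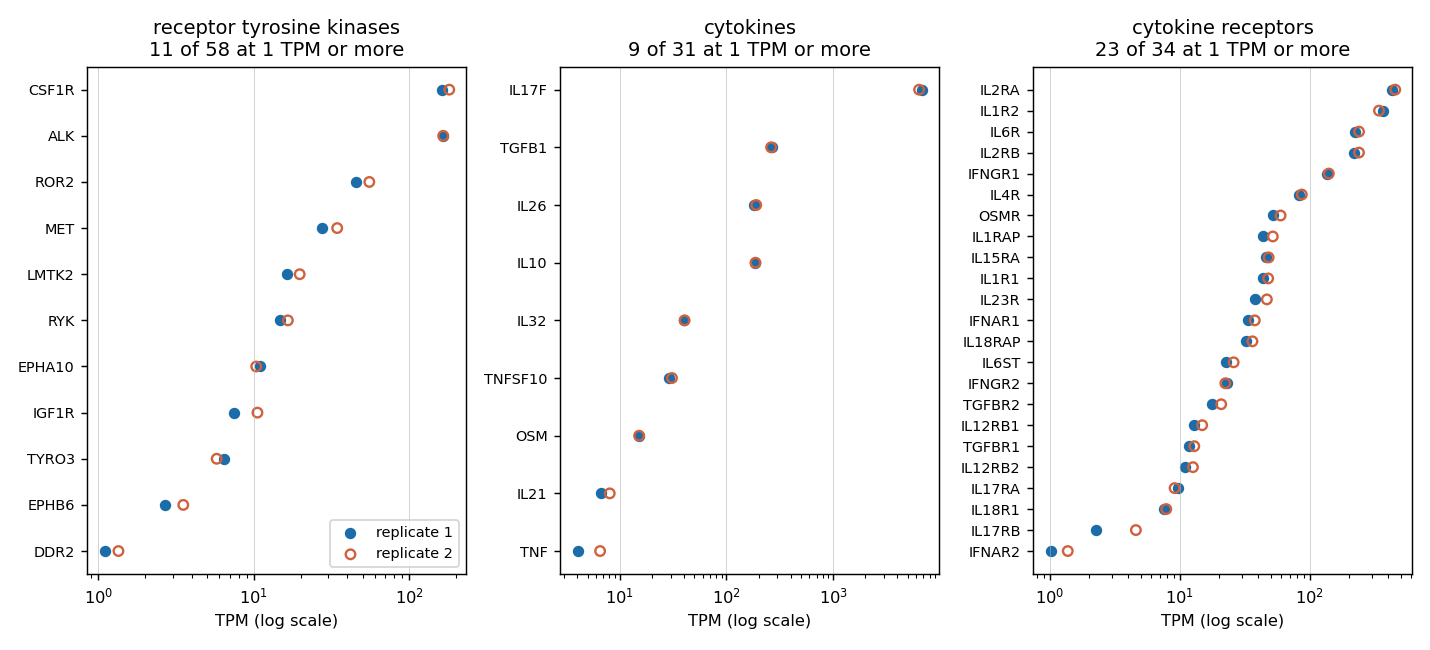
Expressed members of 3 gene lists (rows) with their level in each library (x axis, TPM, log scale; filled points replicate 1, open points replicate 2). IL17F, at 6831 and 6383 TPM, stands apart from the other 8 expressed cytokines, which reach at most 269 TPM.

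None of 13 chemokines was expressed, and 10 were at 3 counts or fewer, among them CCL1, CCL2, CCL3, CCL4, CCL17 and CCL22. Of 17 chemokine receptors and related homing receptors 3 were expressed: S1PR1, which draws lymphocytes out of tissue, at 166 and 184 TPM, CCR7, the lymph node homing receptor, at 12.7 and 13.1 TPM, and CXCR6 at 2.46 and 2.61 TPM. CCR1, CCR2, CCR3, CCR4 and CCR8 had 0 counts. In the adhesion list 13 of 20 genes were expressed, led by SELPLG, the P-selectin ligand (185 and 187 TPM), ICAM1 (108 and 121 TPM), CD47 (92.7 and 94.9 TPM), ITGB1 (54.7 and 62.2 TPM), CD99 (45.8 and 41.9 TPM) and CD151 (40.6 and 36.2 TPM). ITGB2, the beta chain of the main leukocyte integrins, had 3 counts in each library, and ITGB7, CD44 and CD9 had 0.

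Cytotoxic granule genes were expressed in 4 of 14 cases (28.6%). GZMB, granzyme B, was at 297 and 235 TPM, 72.6 and 57.3 times the level of the pore-forming PRF1 (4.09 and 4.11 TPM). SRGN, the proteoglycan that packs granules, was at 105 and 95 TPM and TIA1, an RNA-binding protein most cells express, at 36.9 and 42.7 TPM. GZMA, GNLY, FASLG and CST7 had 0 counts, and GZMH and GZMK had 3 counts or fewer.

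In the TNF receptor family CD30 stood alone at its level, 8.21 and 7.53 times that of TNFRSF10B, the death receptor DR5 (73.5 and 83.9 TPM). TNFRSF25 (55.9 and 62.4 TPM), TNFRSF1A (54.8 and 54.9 TPM) and the adaptors TRAF2 (34.0 and 33.9 TPM) and TRAF3 (31.2 and 35.6 TPM) followed. In all, 10 of 24 genes were expressed. TNFSF8, the ligand of CD30, had 0 counts, as did TNFRSF1B, TNFRSF4, TNFRSF13B, TNFRSF17 and TNFRSF18.

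Checkpoint genes were expressed in 7 of 20 cases, mostly ligands. CD70 was at 195 and 181 TPM, PVR, the ligand of TIGIT, at 107 and 112 TPM, CD274 at 93.8 and 107 TPM and the receptor HAVCR2, or TIM-3, at 37.5 and 44.5 TPM. CD86 was at 5.24 and 6.60 TPM. PDCD1, TIGIT, CD80, VTCN1 and CD200 had 0 counts, and PDCD1LG2 had 0 and 2 counts.

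Antigen presentation genes were present in both classes. Of 18 class I genes 17 (94.4%) were expressed, with B2M at 606 and 571 TPM, HLA-E at 474 and 466 TPM, HLA-C at 449 and 379 TPM, HLA-B at 357 and 336 TPM, the peptide transporter TAP1 at 281 and 290 TPM and PSMB8 at 262 and 258 TPM; HLA-G had 0 counts. Class II genes, which activated human T cells express, were present in 10 of 13 cases. CD74, the invariant chain, was at 1642 and 1674 TPM, HLA-DRA at 1594 and 1500 TPM and HLA-DPA1 at 168 and 167 TPM. The class II activator CIITA was at 12.9 and 14.9 TPM. HLA-DQA1, named after its values were seen, was at 0.252 and 0.200 TPM. HLA genes are polymorphic and similar to each other, so reads that fit several of them make these levels uncertain.

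In the BCL2 family 10 of 16 genes were expressed. MCL1 was the most abundant survival gene, at 16.6 and 21.2 times BCL2L1 (29 and 25.6 TPM), which encodes BCL-XL. It was 116 and 133 times as abundant as BCL2 (4.17 and 4.08 TPM), which was named after its values were seen. PMAIP1, or NOXA, the antagonist of MCL1, was at 176 and 184 TPM, BAX at 162 and 156 TPM, BAK1 at 89.8 and 93.1 TPM and BAD at 24.2 and 29.1 TPM. BCL2L11, which encodes BIM, had 0 counts, and BOK and HRK had at most 2.

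Cell cycle genes were expressed in 23 of 27 cases (85.2%). PCNA, the sliding clamp of DNA replication, was at 801 and 783 TPM, CCNB1 at 540 and 554 TPM, CCNA2 at 333 and 353 TPM, TOP2A at 230 and 284 TPM and CDK2 at 122 and 135 TPM. CCND3, at 223 and 217 TPM, was the only D cyclin with reads counted, as CCND1 and CCND2 had 0 counts. CDKN1C and CDKN2B had 0 counts too.

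Of 30 lymphoma oncogenes and tumour suppressors 19 were expressed. RHOA was at 901 and 931 TPM, the histone methyltransferase EZH2 at 132 and 148 TPM, MYC at 108 and 118 TPM, NOTCH1 at 59.3 and 75.8 TPM and BCL6 at 39.2 and 46.0 TPM. MYCN had 2 and 0 counts, and TCL1A and TAL1 had 0. In DNA methylation, DNMT1, the maintenance enzyme, was at 166 and 188 TPM, 30.5 and 33.1 times DNMT3B (5.44 and 5.67 TPM), and UHRF1 was at 171 and 194 TPM. DNMT3A, DNMT3L and TET1 had 0 counts.

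Around CDKN2A on 9p21, a stretch often deleted in lymphoid tumours, 32 protein-coding genes lie between MLLT3 and IFT74 (chromosome 9, 20341665 to 27062930, GRCh38). Of these 7 were expressed and 25 were at 3 counts or fewer. CDKN2A (21967753 to 21995301), which encodes the cell cycle inhibitors p16 and ARF, was at 35.2 and 33.4 TPM with 1399 and 1251 counts. Its neighbours on both sides had no reads: MTAP (21802543 to 21937651), an enzyme most cells express, and CDKN2B (22002903 to 22009363) had 0 counts in both libraries. The flanking genes KLHL9 (8.90 and 8.77 TPM) and FOCAD (8.46 and 10.6 TPM) before MTAP and CAAP1 (29.8 and 32.8 TPM), PLAA (29.4 and 34.3 TPM) and IFT74 (11.6 and 13.7 TPM) beyond CDKN2B were expressed. The interferon genes between FOCAD and MTAP, many of them close copies of each other, had 0 counts. Expression does not show the DNA, and copy number was not measured.

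Cancer testis genes, which are normally limited to germ cells, were expressed in 2 of 20 cases. MAGEA1 (chromosome X, 153179285 to 153183880) was at 310 and 321 TPM with 4863 and 4746 counts. PRAME was at 8.61 TPM in both libraries. MAGEA3, MAGEA4, MAGEA6, MAGEA10, MAGEC1 and MAGEC2 had 0 counts, though several genes of this group are near-identical copies whose reads can be lost.

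All 26 Golgi resident genes on the list were expressed, with a median of 48.5 TPM. GALNT2, an enzyme that starts O-linked glycans, was at 278 and 307 TPM, 1.56 and 1.59 times the level of GOLM1. GOLPH3, which anchors enzymes in the Golgi, was at 236 and 247 TPM, GOLM1 at 178 and 194 TPM, ACBD3 at 143 and 152 TPM and GORASP2 at 101 and 109 TPM. GOLM1 was therefore the third of 26, and it was 5.60 and 5.30 times as abundant as its paralog CASC4 (31.8 and 36.5 TPM, named after its values were seen).

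Among noncoding genes longer than 1000 bases the most abundant were the pseudogenes EEF1A1P5 (1091 and 1126 TPM), AC008038.1 (908 and 1016 TPM), NAPSB (774 and 723 TPM) and MTND2P28 (770 and 685 TPM) and the processed transcript LRRC75A-AS1 (732 and 710 TPM). EEF1A1P5 is a copy of EEF1A1 and MTND2P28 of a mitochondrial gene, so their reads may come from those genes. Of 15 long noncoding RNAs on a list 10 were expressed, led by the growth-linked host genes SNHG5 (635 and 497 TPM), GAS5 (466 and 440 TPM), DANCR (348 and 335 TPM), SNHG1 (156 and 168 TPM), then NORAD (96.8 and 108 TPM) and TUG1 (24.0 and 33.6 TPM). MIR155HG, the host gene of miR-155, had 1 and 0 counts, and H19, MEG3 and HOTAIR had 0.

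The libraries ranked genes alike, with a Pearson r of 0.995 on log2 TPM across 9998 expressed protein-coding genes, which are not independent replicates. The median ratio of the higher to the lower library was 1.06 at 100 TPM or more, 1.10 between 10 and 100 TPM and 1.17 between 1 and 10 TPM, and 30 of 9998 genes differed by over 2-fold. The difference moved with gene length. Expressed genes were put in 4 groups of near-equal size by length. Among the shortest (207 to 3315 bases) 50% were higher in replicate 2, and among the longest (7542 to 44677 bases) 90.3% were, with a median log2 ratio of 0.21. Among the long genes AHNAK was at 19.6 and 34.1 TPM and UBR4 at 11.4 and 20.6 TPM. Among genes at 10 TPM or more in at least 1 library, the largest gap was that of GPR89B, at 1.59 and 16.4 TPM, a gene with near-identical copies, as is EIF3CL (15.1 and 7.56 TPM). RAMP1, a partner of the calcitonin receptor-like receptor, was at 39.1 and 20.4 TPM.

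Promoter windows differed in base composition between classes of gene level. Windows from 250 bases before to 50 after the RefSeq start (GRCh38.p14) were matched by symbol and chromosome for 14895 of 19936 protein-coding symbols. A window was counted as CpG-rich when 50% or more of its bases were G or C and its observed over expected CpG ratio was 0.6 or more. At 100 TPM or more 86.9% of 1264 windows were CpG-rich, between 10 and 100 TPM 86.6% of 4700, between 1 and 10 TPM 76.6% of 2118, and among genes with 0 counts 36.0% of 4431. Over all windows the share was 64.4%. The letters TATAAA, on either strand, went the other way, in 6.17% of windows at 100 TPM or more and 16.8% at 0 counts, against 9.37% of all windows. The AP-1 letters TGACTCA were in 3.69% of all windows, with the lowest share, 2.30%, between 10 and 100 TPM, 3.09% at 100 TPM or more and the highest, 4.83%, at 0 counts. CCAAT was in 41.1% at 100 TPM or more, 36.4% at 0 counts and 36.4% of all. TTCNNNGAA, the letters that STAT factors bind, was in 6.98% of all windows. Genes of different classes differ in many ways, and no test was made.

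**Figure D5:**
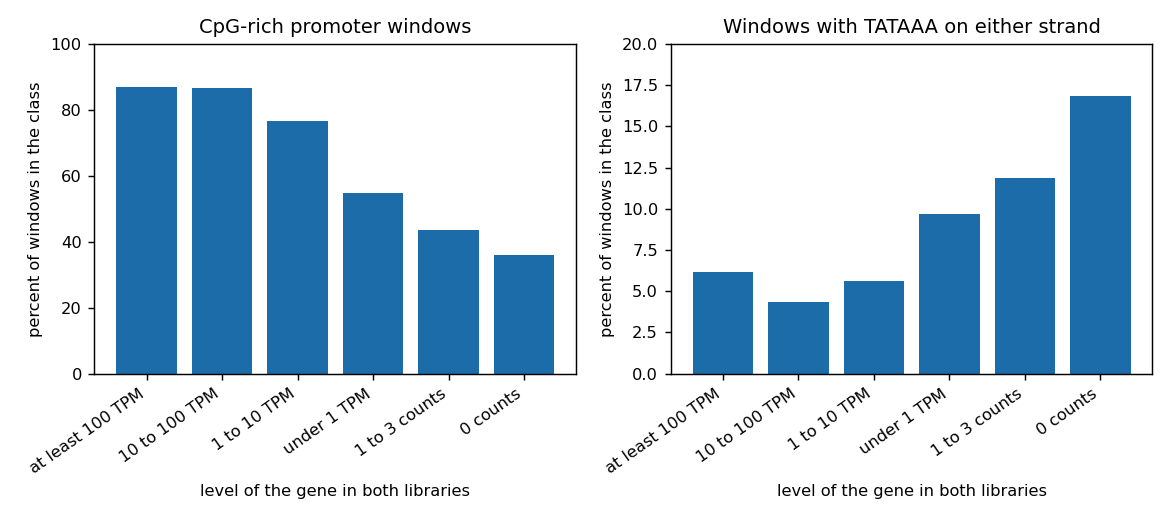
Share of promoter windows (y axis, percent from 0) that were CpG-rich (left) or held TATAAA on either strand (right) in 6 classes of gene level (x axis). CpG-rich windows make up 86.9% of the highest class and 36.0% of the class with 0 counts, and TATAAA runs from 4.34% between 10 and 100 TPM to 16.8% at 0 counts.

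IL17F and TNFRSF8 did not have the CpG-rich promoter type usual for their level. The 250 bases before the start are printed for 5 genes, 5′ to 3′ on the strand of the gene. They set IL17F beside its silent paralog, and CD30 and ALK beside the fusion partner NPM1. Capitals mark matches of the 4 motifs searched on either strand, so a CCAAT on the other strand is printed as its complement read backwards.
IL17F (chr6:52244501-52244750, minus strand): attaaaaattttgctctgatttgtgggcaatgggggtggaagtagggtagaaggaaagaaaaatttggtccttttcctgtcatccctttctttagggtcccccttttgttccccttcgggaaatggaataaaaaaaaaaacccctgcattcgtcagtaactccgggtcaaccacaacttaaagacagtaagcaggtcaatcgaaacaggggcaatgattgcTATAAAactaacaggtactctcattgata
IL17A (chr6:52186125-52186374, plus strand): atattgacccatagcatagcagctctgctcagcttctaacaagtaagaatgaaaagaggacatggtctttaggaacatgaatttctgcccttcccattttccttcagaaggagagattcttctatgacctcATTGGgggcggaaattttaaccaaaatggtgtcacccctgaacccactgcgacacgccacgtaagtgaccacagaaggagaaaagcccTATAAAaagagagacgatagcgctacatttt
TNFRSF8 (chr1:12063053-12063302, plus strand): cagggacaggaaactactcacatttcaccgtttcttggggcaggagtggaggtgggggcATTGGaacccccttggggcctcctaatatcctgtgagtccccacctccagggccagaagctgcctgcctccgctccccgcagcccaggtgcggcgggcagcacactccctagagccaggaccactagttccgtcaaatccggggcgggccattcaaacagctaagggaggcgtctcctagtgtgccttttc
NPM1 (chr5:171387599-171387848, plus strand): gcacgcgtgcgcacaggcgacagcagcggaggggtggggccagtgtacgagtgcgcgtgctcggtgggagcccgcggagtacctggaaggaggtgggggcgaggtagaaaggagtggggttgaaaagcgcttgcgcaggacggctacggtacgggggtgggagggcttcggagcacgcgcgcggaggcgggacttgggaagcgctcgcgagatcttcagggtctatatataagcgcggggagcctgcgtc
ALK (chr2:29921587-29921836, minus strand): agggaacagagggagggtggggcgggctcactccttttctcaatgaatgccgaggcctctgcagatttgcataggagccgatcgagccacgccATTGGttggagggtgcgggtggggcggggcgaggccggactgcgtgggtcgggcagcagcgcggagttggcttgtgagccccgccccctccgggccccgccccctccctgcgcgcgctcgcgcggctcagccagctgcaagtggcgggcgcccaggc

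IL17F, with 42.0% G and C and a CpG ratio of 0.302 over its 300-base window, and IL17A, with 44.7% and 0.404, were both CpG-poor. Both held TATAAA, at 29 and 31 bases before the start. IL17A also held CCAAT on the other strand, at 119 bases before the start and once past it, and IL17F held TTCNNNGAA past the start. So the level of 6831 and 6383 TPM in IL17F and the 0 counts in IL17A stood beside the same window type. TNFRSF8 had a ratio of 0.414 and was not CpG-rich either; its CCAAT lies 191 bases before the start, and TGACTCA lies at 2 bases past the start, outside the printed stretch. NPM1, at 66.0% and a ratio of 1.12 with 33 CpG sites, held none of the 4 motifs. ALK's own promoter was CpG-rich, at 71.0% and 0.757, with CCAAT 157 bases before the start. In the fusion the NPM1 promoter is the one that drives the kinase, and counts per gene do not show where transcription began.

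Other abundant lineage genes also had CpG-poor windows. CD74, GZMB, CSF1R, IL2RA and ALB had CpG ratios of 0.136, 0.0481, 0.278, 0.316 and 0.481. IRF4, JUNB and CD274 had ratios of 0.841, 0.770 and 0.910 and were CpG-rich. By list, 6 of 12 anaplastic large cell lymphoma markers with a window were CpG-rich, against 15 of 15 common reference genes, 0 of 2 T cell receptor complex genes, 0 of 8 T cell surface genes, 3 of 24 cytokines and 1 of 11 class II genes. The list of 24 Golgi genes with a window had 20.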

How the data were processed

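RNA-seq was done on 4 SUP-M2 libraries, and the 2 shscramble libraries were used, grouped by title. Per the labels' protocols, total RNA was column-purified and made into libraries with a SMARTER mRNA kit. For aligner, counter and strand setting the sources used here give nothing. GRCm38 and mm10 stand in the submitters' processing notes, but all 58735 genes of the table match GENCODE 29 on GRCh38 in coordinates. The authors deposited read counts per gene, not normalized, and FPKM values. The file headers name a gene length, which for all 58735 genes equals the merged exons of GENCODE 29. Set against the counts and this length, the FPKM values imply a total per library other than the sum of its counts. From these FPKM values TPM was computed over all genes, so that lengths can be compared. Symbols turned into dates (27) were restored by identifier. Y-linked genes and XIST are not reported here by name, but no gene was removed from the totals or from the TPM scale. A gene was expressed at 1 TPM in both libraries, and 3 counts was the floor.

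The members and gene lists were chosen with earlier results of these data known. Named were ALK, TNFRSF8 and GOLM1, the 15 highest nuclear protein-coding genes outside ribosomal proteins, the 5 highest noncoding genes over 1000 bases, up to 6 expressed members and up to 6 at 3 counts or fewer of each list, and the 5 genes that differed most between libraries in each direction; other genes, families and receptor segments in the text were chosen after their values were seen. No comparison was tested. Class assignment was run on simulated data. A gene simulated as silent must there come back without counts, so this checks the code only. Loss of reads between genes was not simulated, so it does not bear on the genes without counts above. Alternatives were other scales, other thresholds and leaving out each library. Promoters came from RefSeq (GRCh38.p14). Python 3.11.15, pandas 2.3.3, numpy 2.4.6 and matplotlib 3.10.9 were used. Some members of the lists are not reported here by name. LINC00152 had no match by symbol.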

Additional observations from a re-analysis of the deposited data

How the results depend on the processing

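Over 110 values recomputed for 19 results, 95 stayed within the spread between the libraries or within 1.5 times the count, and 15 moved. For ALK, TNFRSF8 and GOLM1 the value of either library alone always lies within that spread, so leaving out a library could not move them. On the other scales every value of these 3 genes moved. With 1 library in place of both, the count of expressed protein-coding genes was 10086 to 10158, genes at 100 TPM or more 1575 to 1644, genes with 0 counts 7169 to 7226, ALK 164 to 165 TPM, TNFRSF8 604 to 632 TPM and GOLM1 178 to 194 TPM. On the FPKM scale as deposited, 305 protein-coding genes reached 100, ALK was at 44.1, TNFRSF8 at 165 and GOLM1 at 49.7. With the total over nuclear protein-coding genes the 3 were at 196, 737 and 222 TPM, and as CPM, with no length, at 340, 647 and 220.2. These scales differ by construction. At 0.5 TPM the T cell surface markers numbered 5 and the myeloid markers 2. At 2 TPM or as CPM the liver markers numbered 1, since FGB passed no more. Without replicate 2 the myeloid markers numbered 2, since CD14 passed 1 TPM in replicate 1 alone (1.27 and 0.613 TPM); their range was 1 to 2. The alternative that left out genes sharing 50% or more of their exonic bases, chosen after seeing the data, gave 5912 genes with 0 counts. Depth limits the genes at 3 counts or fewer, whose absence cannot be told from a low level. No paired analysis was possible because no comparison between groups was made.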
